A study of Rattus norvegicus with 24 samples.

Results

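Gene expression in the rat urethra was compared between 3 and 7 days after injury in rats that had received mesoangioblasts (MABs) engineered to express vascular endothelial growth factor (VEGF). Of the 24 samples of the series, the 8 labelled VEGF_MAB were used, 4 from 3d and 4 from 7d. Of the 32883 genes in the table, 16241 had a mean normalized count of at least 2 over these 8 samples and were tested. Replicates 1, 2, 3 and 4 make up 3d, and replicates 6, 7, 11 and 12 make up 7d. The labels of 7d replicates 6 and 7 add the word recovery, and those of replicates 11 and 12 do not. Every comparison was made with all 8 samples and again without 3d replicate 4.

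The donor cells were MABs, vessel-associated progenitors isolated from rat skeletal muscle. They carried a lentiviral vector in which the SFFV promoter drives VEGF165 together with a truncated CD34, and a second vector for eGFP and firefly luciferase, and the labels give the genotype as VEGF OE. The recipients were young adult virgin female Sprague–Dawley rats. Simulated vaginal delivery, a pudendal nerve crush with vaginal distension, was followed on the same day by injection of the cells into the aorta. The rats of 3d and 7d were different animals. RNA came from urethral tissue, so that each value is a mixture of muscle, epithelium, nerve, vessel, stroma and blood. How much of the organ was taken is not given in the sources used here. Saline and MABs without the VEGF vector were the other treatments, and samples of these groups entered the fit and the tests of the difference between changes.

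After crush and stretch, muscle is rebuilt from Pax7-positive satellite cells that activate myogenic regulators such as myogenin. Denervated Schwann cells and injured neurons switch on growth genes. VEGF acts on the receptors Flt1 and Kdr of endothelial cells and drives the growth of vessels. Immediate early genes, among them the Fos, Jun and Nr4a families, are transcription factors and feedback phosphatases whose mRNA rises within minutes of many stimuli and decays quickly.

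The 3d libraries held 3042531 to 4261098 reads on genes and the 7d libraries 5415577 to 6288841. A normalized count is a read count divided by the size factor of its sample, and 1 read was worth 4.45 to 8.33 normalized counts at 3d and 2.85 to 3.63 at 7d. Reads of 3d replicates 1, 2 and 3 came from mitochondrially encoded genes in 28.4%, 39.1% and 30.7% of cases, while 3d replicate 4 had 15.7% and the 7d samples 12.4% to 15.9%. On the log2 scale, 3d replicate 4 correlated with the 7d samples at a Pearson r of 0.902 to 0.921 and with the other 3d samples at 0.837 to 0.887, both across genes. In 3d replicate 2 the urothelial genes made up 0.0109% of the reads, against 0.133% to 0.469% in the other 7 samples. Markers of striated muscle, smooth muscle and urothelium were detected on both days, with Acta1, skeletal actin, at 68043, 60908, 44754 and 40065 at 3d and 51406, 77212, 112489 and 64799 at 7d.

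**Figure D1:**
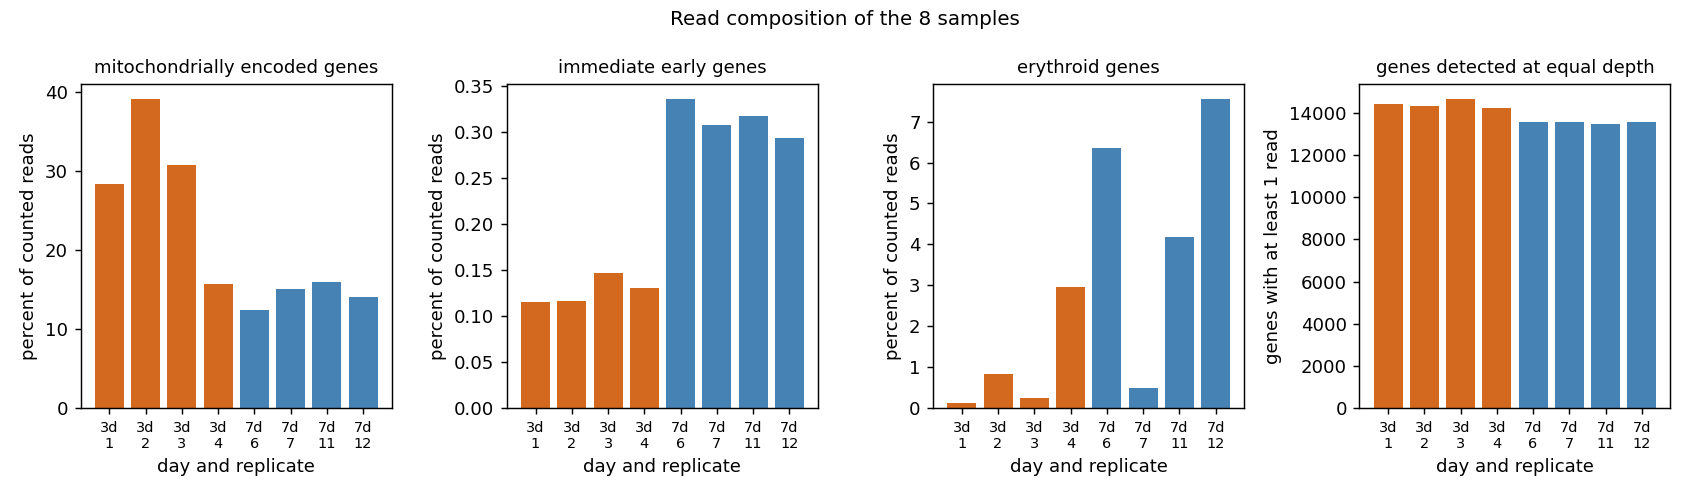
Share of counted reads (percent) from mitochondrially encoded genes, immediate early genes and erythroid genes, and the number of genes with at least 1 read after every sample was thinned to 2170695 reads, with 1 bar for each of the 8 samples (orange 3d, blue 7d). The mitochondrial share of 3d replicate 4, 15.7%, lies within the range of 7d, while its immediate early share, 0.13%, lies within the range of the other 3d samples.

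Far more genes were higher at 3d than at 7d. With all 8 samples, 2148 genes were called higher at 3d, 13.2% of those tested, and 367 were called higher at 7d, 2.26%. Without 3d replicate 4 the counts were 2687 (16.5%) and 580 (3.57%), of which 2104 and 317 were called in both comparisons. A call required an adjusted p below 0.05 in limma and a log2 difference beyond 1, and the difference is that of log2(normalized count + 1), 7d minus 3d. On this scale the differences of low genes depend on the added 1 and on samples without a read. They can be smaller or larger than the ratio of means. The samples of the 2 days did not overlap and were higher at 3d for 22.3% of genes without replicate 4 and for 13.9% with it. They did not overlap and were higher at 7d for 13.1% without replicate 4 and for 8.04% with it. The median log2 difference over all genes was -0.05 without replicate 4. Quantile normalization moved this median to 0.27 and took the calls to 2104 higher at 3d and 1362 higher at 7d, or 60.7% rather than 82.2% of calls on the side of 3d. Scaling each sample to the same total moved the median to 0.17, with 2222 and 1265 calls. Scaling to the same total outside mitochondrially encoded genes, added after the data had been seen, moved it to -0.15, with 2811 and 429 calls, or 86.8% on the side of 3d.

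At equal depth the 3d samples also showed more genes. After thinning every sample to 2170695 reads, 14405, 14315, 14641 and 14202 genes had at least 1 read in 3d replicates 1 to 4, and 13545, 13548, 13440 and 13553 in 7d replicates 6, 7, 11 and 12. The days did not overlap, with a mean of 14391 ± 186 genes at 3d and 13522 ± 54.4 at 7d (SD, n = 4 each). The difference of 869 genes had an exact two-sided permutation p of 0.0286, the smallest that 4 against 4 samples can give, and it was 932 without replicate 4 with the same p. Among the genes called higher at 3d without replicate 4, 275 had no read in any 7d sample and 778 had 3 reads or fewer in each of them.

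3d replicate 4 lay between the days, and where it lay differed between groups of genes. Its position was measured for genes called without it, with 0 at the mean of 3d replicates 1, 2 and 3 and 1 at the mean of 7d on the log2 scale. Over the 2687 genes higher at 3d its median position was 0.54, and 54.6% of them were nearer to 7d. When each of replicates 1, 2 and 3 was left out in the same way, the medians were -0.07, -0.19 and -0.18, and 3.06% to 11.3% of genes were nearer to 7d. Over the 580 genes higher at 7d the median position of replicate 4 was 0.62, with 59.3% nearer to 7d, and those of replicates 1, 2 and 3 left out in the same way were 0.285, 0.14 and 0.24, with 25.8% to 33.2% nearer to 7d. For the immediate early genes higher at 7d the median position of replicate 4 was -0.02 over 10 genes. For the erythroid genes higher at 7d it was 0.95 over 9 genes, and for small noncoding RNAs higher at 3d it was 1 over 49 genes. A gene with no read in replicate 4 and none at 7d takes a position of 1 whatever its level in the other 3d samples. The small noncoding RNAs took few reads, so that their value cannot be told apart from this floor. These positions are a description of 1 sample, and their cause was not tested.

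**Figure D2:**
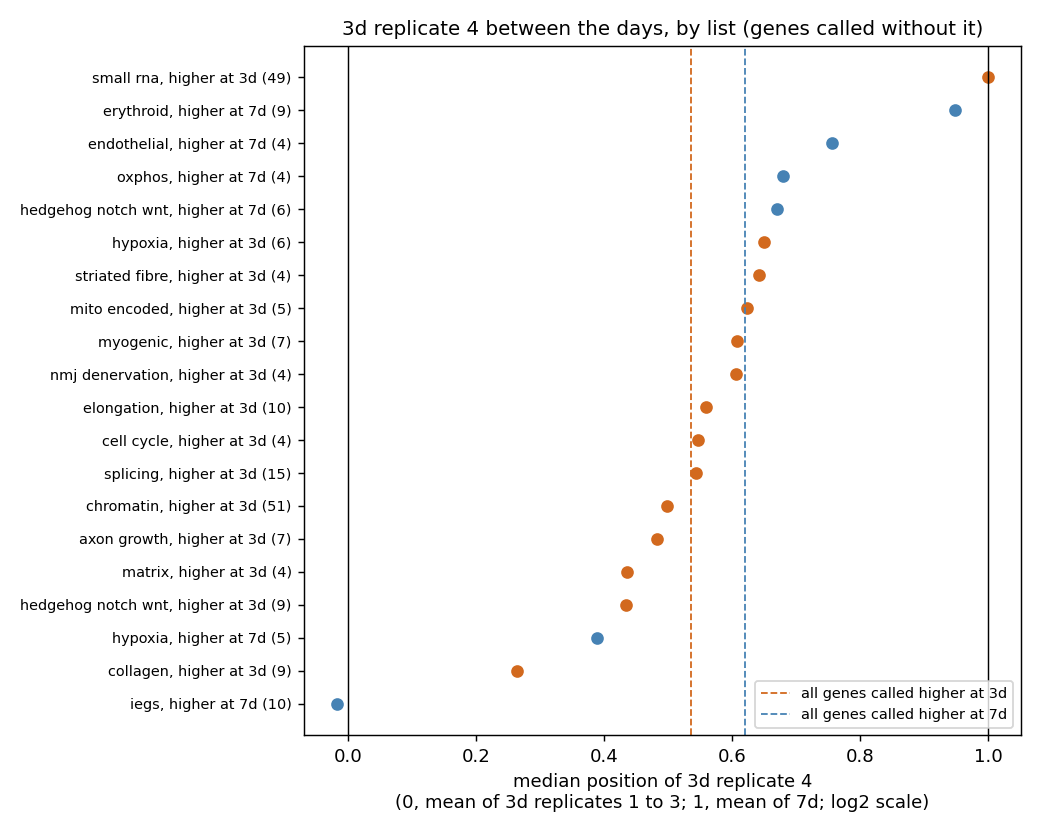
Median position of 3d replicate 4 between the mean of 3d replicates 1 to 3 (0) and the mean of 7d (1) on the log2 scale, for the gene lists shown, each with at least 4 genes called without it (number of genes in brackets, orange higher at 3d, blue higher at 7d), with dashed lines at the medians of all called genes, 0.54 and 0.62. Immediate early genes lie at -0.02 and erythroid genes at 0.95.

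Immediate early genes were higher at 7d. Of 26 tested, 10 were called higher at 7d and 0 higher at 3d without replicate 4, against 3.57% and 16.5% of all genes, and 11 and 0 were called with all 8 samples. Their median log2 difference was 0.91, against -0.05 over all genes. Leaving out 3d replicate 2 as well left 7. Values of genes are normalized counts in the order of the replicates given above, and log2 differences are given without replicate 4, with the standard error of limma.

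Nr4a1, an orphan nuclear receptor induced early in muscle and immune cells, had 64.9, 100.01, 85.8 and 80.1 at 3d and 2333, 1743, 1766 and 435 at 7d. Every 7d sample was above every 3d sample, replicate 4 included, and the mean was 18.8-fold higher at 7d (4.0 ± 0.71, adjusted p = 3.80e-04). Fosb, an AP-1 subunit, had 59.5, 158, 151 and 71.2 at 3d and 5064, 747, 1952 and 1160.1 at 7d. Its mean was 18.1-fold higher at 7d (3.91 ± 1.02, adjusted p = 0.00708), and 7d replicate 6 was the highest sample. Nr4a3, a close relative of Nr4a1, had 91.9, 83.3, 126 and 80.1 at 3d and 569.5, 670.3, 441 and 482 at 7d. It was called with all 8 samples (2.50 ± 0.82, adjusted p = 0.0334) and not without replicate 4 (adjusted p = 0.0524), although the days did not overlap.

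The AP-1 subunits and their relatives had smaller differences. Junb had 1000.3, 1634, 1352 and 1273 at 3d and 3312, 2453, 3668 and 3379 at 7d (1.28 ± 0.27, adjusted p = 0.00142). Jund had 4764, 6067, 4414 and 3696 at 3d and 11749.6, 17434, 15405 and 11389 at 7d (1.45 ± 0.34, adjusted p = 0.00326). Maff, a small Maf transcription factor, had 303, 350.05, 454 and 325 at 3d and 1538, 881, 1182 and 949 at 7d (1.61 ± 0.36, adjusted p = 0.00244). In all of these the days did not overlap and 3d replicate 4 lay on the side of the other 3d samples. Dusp1, a phosphatase that switches off MAP kinases, had 833, 758, 1519 and 1656 at 3d and 5681, 2958, 2349 and 2538 at 7d (1.68 ± 0.49, adjusted p = 0.0146). Zfp36, which destabilises cytokine mRNAs, had 384, 525, 519.6 and 227 at 3d and 1788, 1235, 1254 and 621 at 7d (1.28 ± 0.38, adjusted p = 0.0166). Ier2 had 2389.9, 1317, 2270.2 and 2338 at 3d and 3686, 4339, 3649 and 6191 at 7d (1.18 ± 0.29, adjusted p = 0.00485), and Ier5 had 1427, 942, 1569 and 1768 at 3d and 2379.7, 2961, 2973 and 2913 at 7d (1.12 ± 0.26, adjusted p = 0.00301). Both are early response genes, and in both the lowest 7d sample was above the highest 3d sample. Arc, known from synapses, was carried by few reads, with 5.41, 0, 0 and 26.7 at 3d and 18.1, 48.5, 52.8 and 18.9 at 7d (4.09 ± 1.0, adjusted p = 0.0044), and its days overlapped once replicate 4 was counted. Leaving out a further library ended the call without 3d replicate 1 or 7d replicate 6 for Dusp1 and Zfp36 and without 3d replicate 2 for Dusp1, Ier2 and Ier5.

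Fos and Egr1 did not pass. Fos had 541, 1800.2, 1715 and 200.4 at 3d and 649, 405, 304 and 385 at 7d, and its log2 difference of -1.5 was of the opposite sign (adjusted p = 0.196). Egr1 had 1855, 3509, 4979 and 1870.1 at 3d and 6119.7, 2510.1, 10452 and 6223 at 7d (0.82 ± 0.62, adjusted p = 0.35). In both genes the samples of the days overlapped. Together the immediate early genes took 0.115%, 0.117%, 0.146% and 0.13% of the reads of 3d replicates 1 to 4 and 0.335%, 0.307%, 0.317% and 0.293% at 7d.

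**Figure D3:**
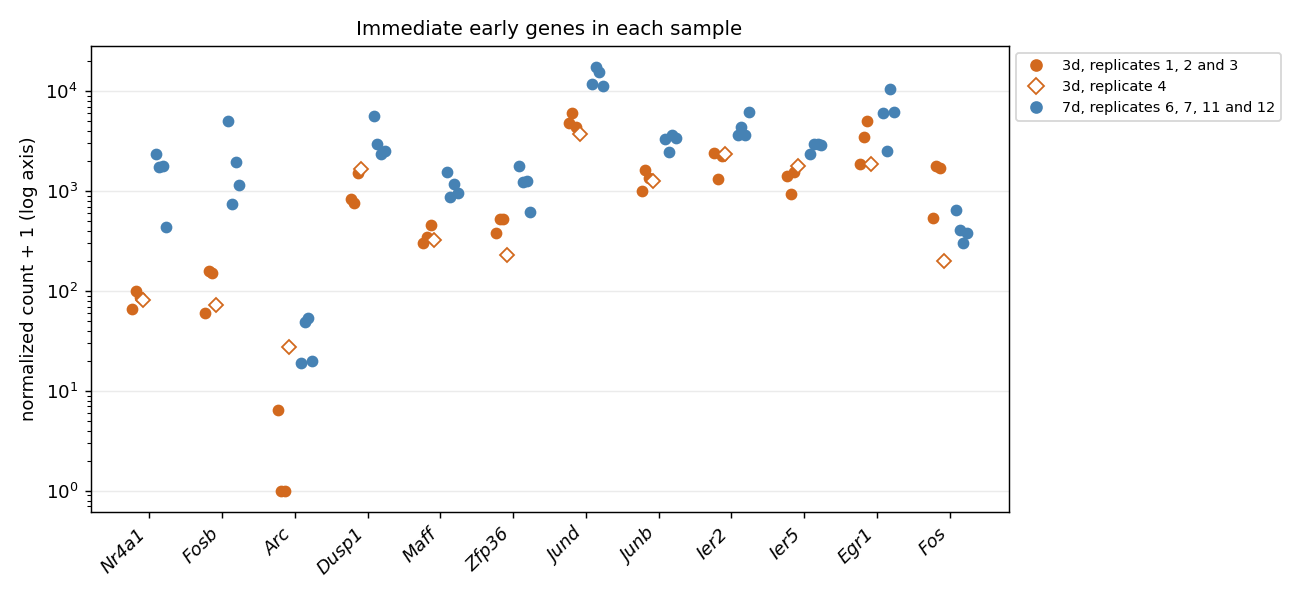
Normalized count + 1 on a log axis of 12 immediate early genes in each of the 8 samples (orange 3d, open diamond 3d replicate 4, blue 7d). For Nr4a1 the 3d samples lie between 64.9 and 100.01 and the 7d samples between 435 and 2333, while the days overlap for Egr1 and Fos.

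Several of these genes share a promoter element known to bind CREB, a factor activated by cAMP and calcium signals. The cAMP response element TGACGTCA, which reads the same on both strands, was searched in the 250 bases before the start of each gene in RefSeq promoters of build GRCr8. It was found for 5 of the 17 immediate early genes that were tested and had a window, and for 2.7% of the 11103 tested genes with one. It was found for 4 of the 9 called higher at 7d that had a window, and these 4 are shown with the element in capitals, 5′ to 3′ on the strand of the gene. They lie at chr19:40399123-40399372, plus strand (Ier2), chr7:112792537-112792786, plus strand (Maff), chr10:17184603-17184852, plus strand (Dusp1) and chr16:18769772-18770021, minus strand (Jund). A match is a stretch of letters and was not tested for binding.
Ier2: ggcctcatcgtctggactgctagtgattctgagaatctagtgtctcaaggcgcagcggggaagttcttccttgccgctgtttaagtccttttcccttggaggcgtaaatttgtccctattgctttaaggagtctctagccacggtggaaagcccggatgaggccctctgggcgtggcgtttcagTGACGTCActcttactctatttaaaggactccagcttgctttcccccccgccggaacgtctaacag
Maff: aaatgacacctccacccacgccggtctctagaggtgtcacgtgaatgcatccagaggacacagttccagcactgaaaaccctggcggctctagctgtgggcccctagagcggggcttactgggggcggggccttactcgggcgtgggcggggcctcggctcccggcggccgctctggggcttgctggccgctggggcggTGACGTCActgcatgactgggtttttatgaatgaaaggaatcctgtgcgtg
Dusp1: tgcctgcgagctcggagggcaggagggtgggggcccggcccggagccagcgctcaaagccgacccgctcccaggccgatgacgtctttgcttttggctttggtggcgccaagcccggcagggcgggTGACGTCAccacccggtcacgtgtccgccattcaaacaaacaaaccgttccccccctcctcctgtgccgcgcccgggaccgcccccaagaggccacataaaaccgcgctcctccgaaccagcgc
Jund: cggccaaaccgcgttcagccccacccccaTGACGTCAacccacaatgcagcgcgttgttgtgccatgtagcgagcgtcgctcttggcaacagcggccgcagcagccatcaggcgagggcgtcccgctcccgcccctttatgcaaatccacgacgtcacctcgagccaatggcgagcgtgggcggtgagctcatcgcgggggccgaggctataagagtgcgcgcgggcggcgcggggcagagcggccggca

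Many chromatin regulators were higher at 3d. Without replicate 4, 51 of 98 were called higher at 3d and 0 higher at 7d, against 16.5% and 3.57% of all genes, with a median log2 difference of -1.09, and with all 8 samples the counts were 42 and 0. In 68 members the days did not overlap with 3d higher, against 22.3% of all genes. With 1 further VEGF MAB library left out the count was 39 to 48, it was 34 with every sample scaled to the same total, and it was 31 when 7d was represented by its recovery samples, replicates 6 and 7, alone.

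Kmt2c, a histone H3 lysine 4 methyltransferase, had 2482, 2400.3, 2538 and 610.01 at 3d and 109, 77, 83.8 and 117 at 7d. The 3d mean without replicate 4 was 25.6-fold that of 7d (-4.69 ± 0.62, adjusted p = 4.01e-05), and replicate 4 lay between the days. Suz12, a core subunit of the Polycomb complex PRC2, had 606, 617, 777 and 116 at 3d and 21.8, 34.2, 9.31 and 31.5 at 7d (-4.86 ± 0.71, adjusted p = 6.81e-05). Chd9, a chromatin remodeller, had 3131, 3934, 3249 and 1184 at 3d and 435, 371, 261 and 429 at 7d (-3.22 ± 0.46, adjusted p = 6.47e-05). 3d replicates 1, 2 and 3 lay close together in each of these genes, with replicate 4 between them and 7d. Nsd1, a histone H3 lysine 36 methyltransferase, had 3028, 2309, 2886 and 1278 at 3d and 352, 388, 269.99 and 448 at 7d (-2.92 ± 0.39, adjusted p = 4.01e-05). Pbrm1, a subunit of the PBAF remodelling complex, had 3363, 3209, 3269 and 1273 at 3d and 635, 476, 307 and 501 at 7d (-2.82 ± 0.37, adjusted p = 4.01e-05). Chd4 and Kmt2e, the most abundant of the members named here, were not called. Chd4, the ATPase of the NuRD complex, had 9922, 10618, 11619 and 6768 at 3d and 5093, 6669, 6722 and 6024 at 7d (-0.81 ± 0.20, adjusted p = 0.00398), short of a log2 difference of 1. Kmt2e had 11312, 7376, 9762 and 8090.4 at 3d and 7074, 6107, 5515 and 7310.2 at 7d (-0.53 ± 0.26, adjusted p = 0.136).

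Splicing and elongation factors were called in both directions, more often higher at 3d. Of 41 splicing factors, 15 were called higher at 3d and 2 higher at 7d, against 16.5% and 3.57% of all genes (12 and 2 with all 8 samples), with a median of -0.58. Ptbp2, the neuronal polypyrimidine tract binding protein, had 508, 408, 585 and 75.7 at 3d and 39.9, 19.97, 6.21 and 3.15 at 7d (-5.29 ± 0.73, adjusted p = 4.99e-05), a 28.9-fold higher mean at 3d. Its paralog Ptbp1, the form of most other tissues, went the other way, with 589, 658, 605 and 926 at 3d and 1618, 1803, 1595 and 1315 at 7d (1.35 ± 0.25, adjusted p = 4.76e-04). In neither gene did the days overlap. Syncrip, an RNA-binding protein, had 2038, 2784, 1952 and 944 at 3d and 399, 471, 447 and 290.01 at 7d (-2.49 ± 0.31, adjusted p = 2.19e-05). Srrm2, a scaffold of nuclear speckles, had 28966, 25803, 34987 and 15112 at 3d and 7519.9, 8654, 4115 and 8180.3 at 7d (-2.12 ± 0.39, adjusted p = 4.85e-04). Its partner Srrm1 had 10441, 8401, 12274 and 4234 at 3d and 2692, 2211, 999 and 2188 at 7d (-2.43 ± 0.41, adjusted p = 2.43e-04). In these last genes 7d replicate 11 or 12 held the lowest value. Hnrnph2 had 335, 367, 283 and 71.2 at 3d and 10.9, 0, 3.1 and 3.15 at 7d, on 5 reads at 7d (-6.44 ± 1.0, adjusted p = 1.19e-04).

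Of 29 factors of transcription elongation, 10 were called higher at 3d and 1 higher at 7d, against the same shares of all genes, and with all 8 samples 10 and 0. Supt16h, a subunit of the histone chaperone FACT, had 1887, 1842, 2270.2 and 552 at 3d and 185, 88.4, 43.4 and 126 at 7d (-4.34 ± 0.61, adjusted p = 5.21e-05). Cdk13, a kinase of the RNA polymerase II tail, had 1184, 917, 1089.7 and 316 at 3d and 90.7, 42.8, 24.8 and 59.9 at 7d (-4.40 ± 0.69, adjusted p = 1.30e-04). Cdc73, a subunit of the PAF complex, had 708, 342, 686 and 147 at 3d and 68.9, 62.8, 65.2 and 25.2 at 7d (-3.38 ± 0.58, adjusted p = 2.53e-04). These 3 genes did not overlap between the days. Ccnt1, the cyclin of P-TEFb, had 48.7, 33.3, 35.3 and 13.4 at 3d and 0, 0, 0 and 0 at 7d, with no read at 7d and 20 reads in 3d replicates 1, 2 and 3. Against the limit of 3 reads per 7d library it was at least 4.09-fold higher at 3d. Ell3, the member higher at 7d, had 0, 0, 0 and 13.4 at 3d and 3.63, 14.3, 55.9 and 15.8 at 7d, on few reads (4.01 ± 1.34, adjusted p = 0.0315). Its call was lost without 3d replicate 1, 3d replicate 2, 3d replicate 3, 7d replicate 7, 7d replicate 11 or 7d replicate 12 and with replicate 4 in the fit.

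**Figure D4:**
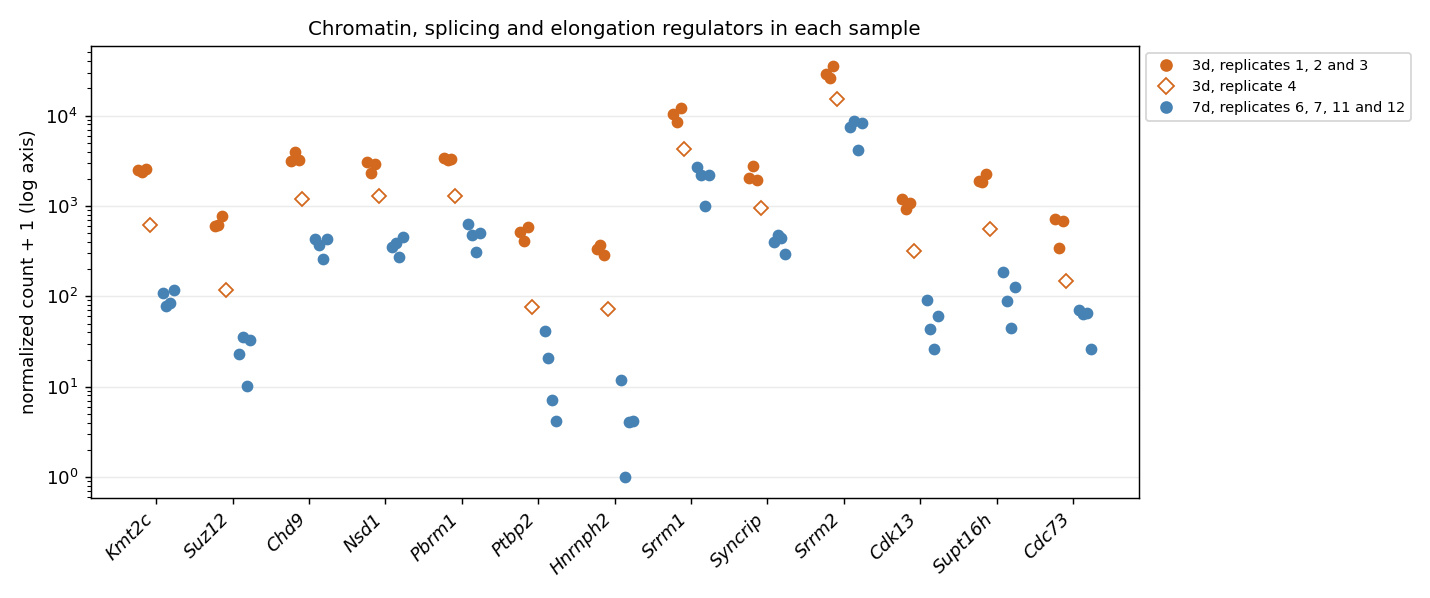
Normalized count + 1 on a log axis of chromatin, splicing and elongation regulators in each of the 8 samples (orange 3d, open diamond 3d replicate 4, blue 7d). 3d replicate 4 lies between the other 3d samples and the 7d samples for each gene shown, as for Kmt2c, where it had 610.01 normalized counts against 2400.3 to 2538 in the other 3d samples and 77.0 to 117 at 7d.

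The largest differences on the side of 3d were in genes with almost no reads at 7d. Sh3pxd2a, a scaffold of podosomes, had 265, 867, 837 and 17.8 at 3d and 7.26, 0, 0 and 3.15 at 7d, or 319 reads in 3d replicates 1, 2 and 3 against 3 at 7d. The ratio of the depth-scaled reads was 267 (95% counting interval 90.7 to 1304). Rasgef1b, a Ras exchange factor, had 524, 217, 737 and 13.4 at 3d and 7.26, 2.85, 0 and 0 at 7d, with a ratio of 226 (95% counting interval 76.4 to 1101). Slc8a1, the sodium-calcium exchanger of excitable cells, had 146, 525, 212 and 22.3 at 3d and 3.63, 0, 3.1 and 0 at 7d, with a ratio of 166 (95% counting interval 45.1 to 1385). In each, 3d replicate 4 lay below the other 3d samples and above 7d. Edem3, Prox1, Arhgap23 and Fam171a1 had 2 or 3 reads at 7d, with ratios of 138 (95% counting interval 37.4 to 1157), 98.9 (95% counting interval 33 to 487), 105 (95% counting interval 35 to 515) and 107 (95% counting interval 35.9 to 527). Cpeb4, which controls poly(A) tails of mRNA, had 535, 608, 772 and 35.6 at 3d and 0, 8.56, 0 and 18.9 at 7d (-7.41 ± 1.0, adjusted p = 4.38e-05).

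For others no read was counted at 7d, and only a lower bound can be given. Llgl1, a regulator of cell polarity, had 59.5, 225, 192 and 17.8 at 3d and 0, 0, 0 and 0 at 7d and was at least 16.6-fold higher at 3d. Akap7, an anchor of protein kinase A, had 146, 150.02, 161 and 13.4 at 3d and 0, 0, 0 and 0 at 7d and was at least 16-fold higher. Setd1b, a histone methyltransferase, had 103, 108, 227 and 4.45 at 3d and 0, 0, 0 and 0 at 7d and was at least 15.3-fold higher. Dennd1b and Snx29, which act in membrane traffic, were at least 11.6-fold and 10.2-fold higher. All of these bounds leave out replicate 4, which lay below the other 3d samples in each of the 5 genes.

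The mitochondrial transcripts behaved unequally. Of 32 mitochondrially encoded genes tested, 5 were called higher at 3d and 0 higher at 7d in both comparisons. The share higher at 3d was near the 16.5% of all genes called without replicate 4, and 3.57% of all genes were called higher at 7d. AY172581.24, a gene of the mitochondrial genome with no name of its own in the table, had 3223962, 5217201, 3724695 and 621953 at 3d and 134325, 93459, 55711 and 119706 at 7d (-5.38 ± 0.71, adjusted p = 4.01e-05). It alone held 15.6%, 20.6% and 17.3% of the reads of 3d replicates 1, 2 and 3. AY172581.9 had 508766, 985878, 684050.03 and 108283 at 3d and 32956, 34503, 37587 and 45573 at 7d (-4.23 ± 0.45, adjusted p = 1.39e-05). Both were lower in replicate 4 than in the other 3d samples and higher there than at 7d. Mt-nd6, the one subunit of complex I encoded on the light strand, had 2768, 5234, 3753 and 356 at 3d and 163, 79.9, 34.1 and 113 at 7d (-5.47 ± 0.64, adjusted p = 2.19e-05). Mt-atp8 had 73796, 166155, 96521 and 17588 at 3d and 9551, 8703, 9986 and 8206 at 7d (-3.54 ± 0.50, adjusted p = 5.21e-05), and Mt-nd4l had 925, 2367, 1049 and 561 at 3d and 261, 159.7, 416 and 189 at 7d (-2.46 ± 0.47, adjusted p = 6.02e-04). In contrast Mt-atp6, which overlaps Mt-atp8 on the mitochondrial genome, had 641992, 1226609, 746583 and 655579 at 3d and 796534, 903639, 1020611 and 886109 at 7d (0.10 ± 0.66, adjusted p = 0.929). Of 187 small noncoding RNA genes tested, 49 were called higher at 3d, against 16.5% of all genes. Higher at 7d were 2, a U2 and a 5S rRNA gene, against 3.57% of all genes. With all 8 samples 37 and 2 were called. These genes have many near-identical copies, so that single members are uncertain. They took 0.0285%, 0.0606% and 0.0373% of reads in 3d replicates 1, 2 and 3, 0.0179% in replicate 4 and 0.0134% to 0.0176% at 7d.

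**Figure D5:**
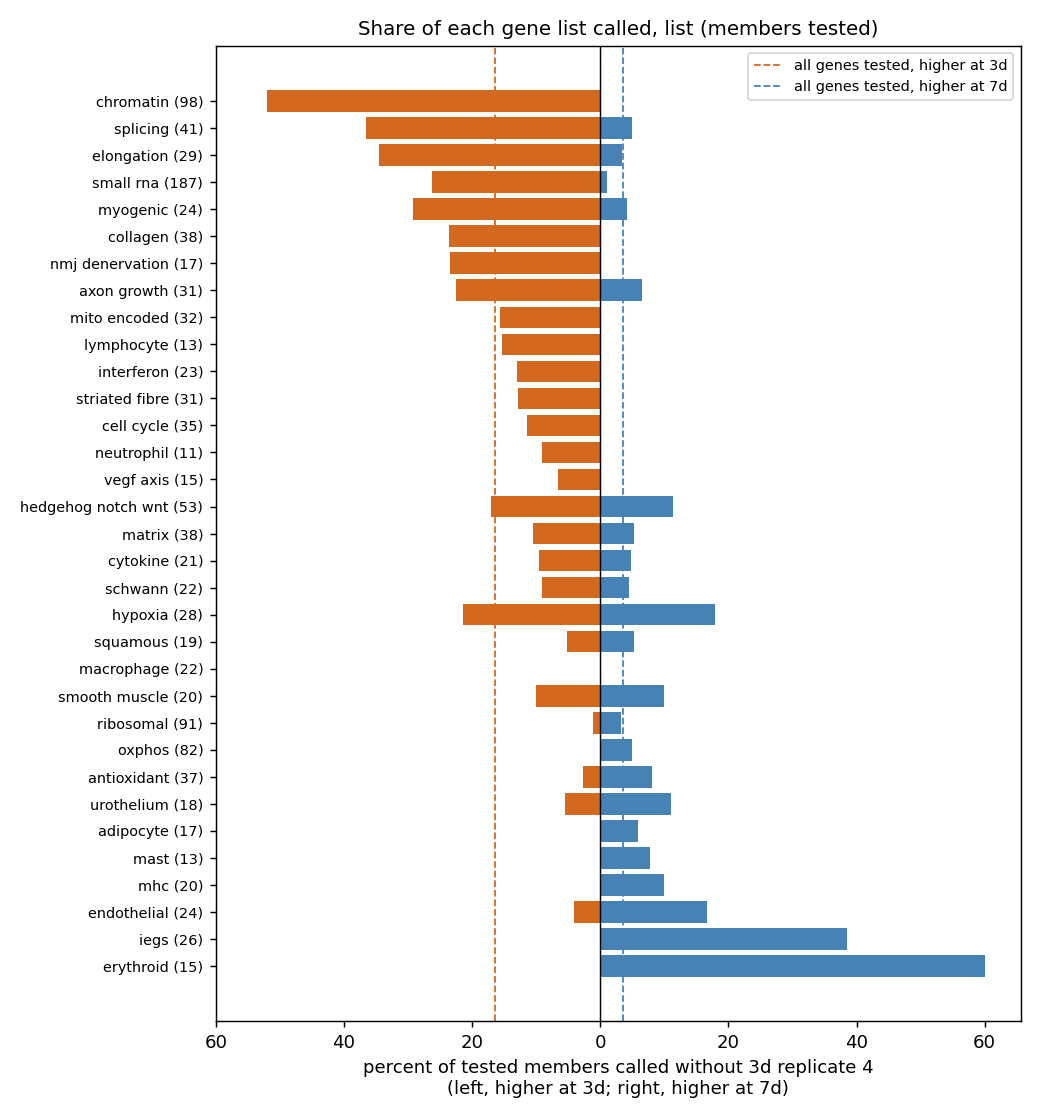
Percent of the tested members of each gene list shown, called higher at 3d (left, orange) or higher at 7d (right, blue) without 3d replicate 4, with dashed lines at the shares of all genes, 16.5% and 3.57%. Chromatin regulators, with 51 of 98, extend furthest on the side of 3d, and erythroid (9 of 15) and immediate early genes (10 of 26) on the side of 7d.

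Some regulators of muscle formation were higher at 3d. Of 24 genes, 7 were called higher at 3d, against 16.5% of all genes, 1, the Notch target Heyl, was called higher at 7d, and 16 were not called, with a median of -1.17, and 7 and 1 were called with all 8 samples. Without 3d replicate 2 as well, 4 were called higher at 3d. In bulk tissue fewer cells of a type and less RNA per cell cannot be told apart. Myog, myogenin, which commits myoblasts to fusion, had 2239, 5084, 2003 and 1950.2 at 3d and 969, 685, 1437 and 520.1 at 7d (-1.76 ± 0.53, adjusted p = 0.0176). Its highest sample was 3d replicate 2. Pax7, the marker of satellite cells, had 37.8, 25, 80.7 and 4.45 at 3d and 0, 0, 3.1 and 0 at 7d, or 1 read at 7d, a ratio of 65.4 (95% counting interval 10.7 to 2681). Pax3, its relative, had 54.1, 25, 10.1 and 8.91 at 3d and 7.26, 0, 3.1 and 6.3 at 7d (-2.66 ± 0.96, adjusted p = 0.0437). Both genes were carried by few reads. Mef2a and Mef2c, partners of the myogenic factors, had 5948, 6076, 4636 and 2832 at 3d and 2187, 1241, 835 and 1173 at 7d (-2.11 ± 0.37, adjusted p = 3.00e-04) and 13523, 13052, 11169.6 and 7378 at 3d and 4647, 6247, 6045 and 4877 at 7d (-1.21 ± 0.39, adjusted p = 0.0261). Myh8, perinatal myosin, which regenerating fibres express, had 7294, 4059, 5141 and 988 at 3d and 489.7, 325, 152 and 536 at 7d, a 14.6-fold higher mean at 3d (-3.98 ± 0.77, adjusted p = 7.22e-04). Barx2, a homeobox factor of myoblasts, had 422, 233, 858 and 8.91 at 3d and 14.5, 8.56, 6.21 and 3.15 at 7d (-5.75 ± 1.35, adjusted p = 0.00336), and Heyl had 108, 242, 131 and 200.4 at 3d and 395, 368, 264 and 306 at 7d (1.12 ± 0.36, adjusted p = 0.0233). Dag1, dystroglycan, had 4272, 3934, 3622 and 4034 at 3d and 3881, 4096, 5989 and 4419.6 at 7d (0.20 ± 0.25, adjusted p = 0.582). Calls of single genes were lost without 3d replicate 1 for Pax3, Mef2c and Heyl, without 3d replicate 2 for Myog, Pax3 and Mef2c, without 3d replicate 3 for Heyl, without 7d replicate 6 for Mef2c and Heyl, without 7d replicate 7 for Pax3 and Heyl, without 7d replicate 11 for Pax3, without 7d replicate 12 for Myog and Mef2c and with replicate 4 in the fit for Pax3 and Mef2c as further libraries were left out.

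Few genes of the mature fibre were called. Of 31, 4 were called higher at 3d (2 with all 8 samples) and 0 higher at 7d, near the 16.5% and 3.57% of all genes, with a median of 0.03. Tpm3, slow tropomyosin, had 3319.97, 5576, 4107 and 1647 at 3d and 755, 536, 438 and 583 at 7d (-2.90 ± 0.40, adjusted p = 5.11e-05). Neb, the giant ruler of the thin filament, had 73542, 37905, 35229 and 18977 at 3d and 20256, 14299, 10877 and 13309 at 7d (-1.69 ± 0.53, adjusted p = 0.0216). Xirp2, an actin-binding protein, had 13507, 15944, 9358 and 3112 at 3d and 2888, 3095, 6377 and 2137 at 7d (-1.93 ± 0.54, adjusted p = 0.0114), and Cacna1s, the calcium channel of the T tubule, had 108, 150.02, 166 and 26.7 at 3d and 0, 8.56, 15.5 and 9.46 at 7d (-4.46 ± 1.01, adjusted p = 0.00248). Acta1, whose values stand above, and Myl1, a myosin light chain with 53028, 39572, 35128 and 21880.1 at 3d and 31494, 39389, 63115 and 36636 at 7d, did not pass (adjusted p = 0.683 and 0.977). Among 17 genes of the neuromuscular junction and of denervation, 4 were called higher at 3d and 0 higher at 7d. For all genes the shares were 16.5% and 3.57%. The median of the list was -0.18, and without 3d replicate 2 as well 2 were called higher at 3d. Fbxo32, the ubiquitin ligase atrogin-1 of wasting muscle, had 6283, 3467, 6372 and 1745 at 3d and 1730.3, 1018, 351 and 763 at 7d (-2.64 ± 0.59, adjusted p = 0.00215). Hdac4, which rises in denervated fibres, had 1281, 892, 1089.7 and 329 at 3d and 337, 74.2, 214 and 117 at 7d (-2.76 ± 0.80, adjusted p = 0.0139). Musk, the receptor kinase of the synapse, had 37.8, 50.01, 70.6 and 8.91 at 3d and 7.26, 5.7, 0 and 9.46 at 7d (-3.41 ± 1.14, adjusted p = 0.0304), and Myog was the other. Among the fibre and junction genes a call was lost without 3d replicate 1 for Neb, without 3d replicate 2 for Xirp2 and Musk, without 3d replicate 3 for Musk, without 7d replicate 11 for Neb and Musk and with replicate 4 in the fit for Neb, Xirp2 and Musk.

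Smooth muscle genes were called in both directions. Of 20, 2 were called higher at 7d and 2 higher at 3d, against 3.57% and 16.5% of all genes. With all 8 samples 1 and 1 were called, and the median without replicate 4 was 0.57. Acta2, smooth muscle actin, had 26765, 19411, 26577 and 38128 at 3d and 69329.8, 114253, 47521 and 68711 at 7d, a 3.09-fold higher mean at 7d (1.57 ± 0.47, adjusted p = 0.0162). Chrm3, the muscarinic receptor of detrusor and urethra, had 48.7, 16.7, 20.2 and 80.1 at 3d and 94.3, 51.3, 115 and 151 at 7d (1.87 ± 0.63, adjusted p = 0.0317). Synpo2 and Pgm5, proteins of the Z-disc and of adhesion plaques, were higher at 3d, Synpo2 with 1665, 1409, 2472 and 468 at 3d and 159.6, 188, 49.7 and 158 at 7d (-3.85 ± 0.89, adjusted p = 0.00304) and Pgm5 with 48.7, 133, 55.5 and 13.4 at 3d and 3.63, 14.3, 12.4 and 6.3 at 7d (-2.99 ± 1.03, adjusted p = 0.0361). Tpm2, an abundant tropomyosin, had 40288, 32746, 37752 and 32001 at 3d and 33754, 58965, 39055 and 33711 at 7d (0.13 ± 0.34, adjusted p = 0.812). These calls depended on single libraries and were lost without 3d replicate 1 for Pgm5, without 3d replicate 2 for Acta2, Chrm3 and Pgm5, without 3d replicate 3, 7d replicate 6 or 7d replicate 12 for Chrm3 and Pgm5, without 7d replicate 7 for Acta2, without 7d replicate 11 for Chrm3 and with replicate 4 in the fit for Chrm3 and Pgm5.

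The 2 gene products of the vector were measured only through the rat genes. Vegfa had 1352, 1167, 1292 and 619 at 3d and 562, 1121, 829 and 772 at 7d (-0.67 ± 0.24, adjusted p = 0.0476), which is short of a log2 difference of 1, and with all 8 samples its adjusted p was 0.276. 3d replicates 1, 2 and 3 lay above the 7d samples, and replicate 4 lay with 7d. Cd34, a surface protein of endothelial and progenitor cells, had 249, 783, 373 and 57.9 at 3d and 14.5, 11.4, 18.6 and 3.15 at 7d. Its 3d mean without replicate 4 was 39.3-fold that of 7d (-5.23 ± 1.01, adjusted p = 6.84e-04; all 8 samples -4.52 ± 0.98, adjusted p = 0.00237), on 15 reads at 7d. In the comparison of the change between days with that after MABs without the VEGF vector, neither gene was called. Whether reads of the transgenes are counted on these genes is not given in the sources used here and was not tested.

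Endothelial genes other than Cd34 were, where called, higher at 7d. Of 24, 4 were called higher at 7d and 1, Cd34, higher at 3d, against 3.57% and 16.5% of all genes. The median was 0.60, and with all 8 samples 2 and 1 were called. Emcn, the sialomucin endomucin of capillaries and veins, had 871, 1050.1, 489 and 1460.5 at 3d and 2518, 1672, 1862 and 2323 at 7d (1.43 ± 0.39, adjusted p = 0.00975). Esam, an adhesion molecule of tight junctions, had 881, 1700.2, 923 and 2329 at 3d and 3432, 2955, 2119.6 and 2188 at 7d (1.23 ± 0.34, adjusted p = 0.00994). Nos3, endothelial nitric oxide synthase, had 373, 608, 116 and 445 at 3d and 1629, 924, 493 and 728 at 7d (1.52 ± 0.47, adjusted p = 0.0211), and Plvap, the diaphragm protein of fenestrae, had 654, 2034, 489 and 2257 at 3d and 3294, 2017, 3836 and 1475 at 7d (1.51 ± 0.53, adjusted p = 0.0399). Without replicate 4 the days overlapped for Nos3 and Plvap and not for Emcn and Esam. The count was 7 without 3d replicate 2, 0 without 3d replicate 3 and 2 without 7d replicate 6. Of the 15 genes of VEGF and angiopoietin signalling, 1 was called, higher at 3d, against 16.5% of all genes. This was Angpt1, the ligand of Tie2, with 1173, 175, 449 and 294 at 3d and 141, 51.3, 24.8 and 148 at 7d (-2.63 ± 0.89, adjusted p = 0.0327). The VEGF receptors did not pass, Flt1 with 1352, 1659, 802 and 1554 at 3d and 2597, 1871, 1719 and 1333 at 7d (0.59 ± 0.29, adjusted p = 0.138) and Kdr with 529.9, 1025, 499 and 779 at 3d and 976, 790.1, 698 and 716 at 7d (0.28 ± 0.29, adjusted p = 0.504). The co-receptor Nrp1 had 1244, 2775, 1539 and 1669.7 at 3d and 1313, 1129.6, 642 and 791 at 7d (-0.90 ± 0.34, adjusted p = 0.0546). By gene, a call was lost without 3d replicate 1, 7d replicate 7 or 7d replicate 11 for Plvap and Angpt1, without 3d replicate 3 for Emcn, Esam, Nos3, Plvap and Angpt1, without 7d replicate 6 for Nos3 and Plvap and with replicate 4 in the fit for Esam and Plvap.

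Of 31 genes of axon growth and guidance, 7 were called higher at 3d and 2 higher at 7d, near the 16.5% and 3.57% of all genes, with a median of -0.05, as over all genes, against 7 and 1 with all 8 samples. Gap43, the growth-associated protein of regrowing axons, had 1222, 2650.3, 2280.3 and 877 at 3d and 424, 311, 449.98 and 233 at 7d, a 5.78-fold higher mean at 3d (-2.50 ± 0.45, adjusted p = 4.30e-04). Dpysl3, a collapsin response mediator, had 416, 1233, 747 and 40.1 at 3d and 25.4, 14.3, 12.4 and 0 at 7d (-6.41 ± 1.18, adjusted p = 4.92e-04). Robo1, the receptor of Slit, had 21.6, 267, 232 and 8.91 at 3d and 0, 0, 3.1 and 0 at 7d, with 1 read at 7d and a ratio of 206 (95% counting interval 36 to 8246). All 4 samples of 3d were above all 4 of 7d in these genes. Sox11, Sema3a and Gdnf, a transcription factor of regrowth, a repellent and a neurotrophic factor, had log2 differences of -4.01, -3.77 and -3.89, each on 5 to 7 reads at 7d. Igf2, the growth factor, had 584, 583, 464 and 405 at 3d and 83.4, 99.8, 68.3 and 107 at 7d (-2.60 ± 0.64, adjusted p = 0.00444). Ret, the receptor of Gdnf, was higher at 7d, with 0, 0, 5.04 and 8.91 at 3d and 18.1, 28.5, 34.1 and 3.15 at 7d (3.22 ± 0.91, adjusted p = 0.0124), and its samples overlapped between the days. With further libraries left out, calls were lost without 3d replicate 1 for Ret, without 3d replicate 2 for Gdnf and Ret and without 3d replicate 3 or 7d replicate 11 for Gdnf.

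Of 22 Schwann cell genes, 2 were called higher at 3d and 1 higher at 7d in both comparisons, with a median of 0.12. Without replicate 4 the shares of all genes were 16.5% and 3.57%. Sox2, which marks repair Schwann cells, had 1828, 1792, 2285 and 833 at 3d and 751, 662, 258 and 476 at 7d (-1.97 ± 0.39, adjusted p = 9.10e-04), although epithelia express it too. Nrg1, the axonal signal for myelination, had 146, 125, 156 and 62.3 at 3d and 29, 14.3, 27.9 and 9.46 at 7d (-2.89 ± 0.70, adjusted p = 0.00404). Prx, periaxin of the myelin sheath, had 32.4, 25, 20.2 and 111 at 3d and 87.1, 79.9, 788 and 75.7 at 7d (2.45 ± 0.69, adjusted p = 0.0117), and 7d replicate 11 stood far above the rest. Pmp22 had 3482, 7934, 3037 and 7561 at 3d and 10099, 4806, 15423 and 3874 at 7d (0.75 ± 0.47, adjusted p = 0.258).

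Immune genes showed few calls. Of 22 macrophage genes, limma called 0 in either direction without replicate 4, with 4 at an unadjusted p below 0.05, edgeR called 2 and DESeq2 4, and limma called 1 with all 8 samples, while 3 were called higher at 3d without 3d replicate 1 and 1 without 7d replicate 6. Lyz2, lysozyme, had 1601, 20886, 7366 and 11492 at 3d and 7473, 3514, 6557 and 6812 at 7d (-0.10 ± 0.63, adjusted p = 0.926), and Cd163, the haemoglobin scavenger receptor, had 357, 2609, 1478 and 806 at 3d and 628, 168, 534 and 287 at 7d (-1.64 ± 0.71, adjusted p = 0.0939). Their highest sample was 3d replicate 2. Ptprc, the pan-leukocyte marker CD45, which stands in none of the lists, was higher at 3d, with 589, 2167, 1327 and 917 at 3d and 170.5, 157, 161 and 271 at 7d (-2.68 ± 0.45, adjusted p = 2.30e-04). Of 21 cytokine and chemokine genes, 2 were called higher at 3d, a lower share than the 16.5% of all genes. In the same list 1 was called higher at 7d, against 3.57% of all genes, and the median was -0.44. With all 8 samples 3 and 1 were called. Il1b, the inflammatory cytokine, had 395, 733, 1679.98 and 588 at 3d and 170.5, 231, 149 and 441 at 7d (-1.80 ± 0.66, adjusted p = 0.0491), and the chemokine Ccl4 had 10.8, 175, 15.1 and 84.6 at 3d and 0, 0, 12.4 and 6.3 at 7d (-3.36 ± 1.13, adjusted p = 0.0321). Both overlapped between the days. Ccl11, the eosinophil chemokine eotaxin, was higher at 7d, with 297, 408, 529.7 and 770.3 at 3d and 1963, 841, 754 and 1415 at 7d (1.52 ± 0.46, adjusted p = 0.0172). Of 23 interferon response genes, 3 were called higher at 3d, a lower share than the 16.5% of all genes, with a median of 0.13. Those 3 were the RNA sensors Ifih1 (-1.30 ± 0.41, adjusted p = 0.0225) and Ddx58 (-4.04 ± 1.12, adjusted p = 0.0109) and the tetherin gene Bst2 (-2.90 ± 0.83, adjusted p = 0.0127), and 1 was left without 3d replicate 2. Of these genes calls were lost without 3d replicate 1 for Ccl11, without 3d replicate 2 for Il1b, Ccl4, Ccl11, Ifih1 and Bst2, without 3d replicate 3 or 7d replicate 11 for Il1b and Ifih1, without 7d replicate 6 for Il1b, Ccl4 and Ccl11 and without 7d replicate 7 for Il1b and Ccl4.

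Smaller immune lists gave single calls, against 16.5% and 3.57% of all genes called higher at 3d and at 7d. Of 11 neutrophil genes Csf3r, the G-CSF receptor, was called higher at 3d (-2.91 ± 0.82, adjusted p = 0.0117). Of 13 lymphocyte genes Cd4 (-4.23 ± 1.07, adjusted p = 0.00576) and Cd22 (-3.04 ± 1.09, adjusted p = 0.0429) were called higher at 3d, on 2 and 0 reads at 7d, the first with a ratio of reads of 32.7 (95% counting interval 8.19 to 284). Of 13 mast cell genes the tryptase Tpsab1 was called higher at 7d (3.70 ± 1.23, adjusted p = 0.0306). Of 20 genes of antigen presentation Cd74, the invariant chain, with 3704, 8984, 4424 and 7832 at 3d and 12054, 11173, 11488 and 16061 at 7d (1.25 ± 0.46, adjusted p = 0.0479), and Tap1 (1.03 ± 0.32, adjusted p = 0.0191) were called higher at 7d without replicate 4, and 0 genes with all 8 samples. Each of these calls was lost in some of the further fits, namely without 3d replicate 1 for Tpsab1, Cd74 and Tap1, without 3d replicate 2 for Csf3r, Cd4 and Cd22, without 3d replicate 3 for Cd22, Tpsab1, Cd74 and Tap1, without 7d replicate 6 or 7d replicate 11 for Cd22, Tpsab1 and Cd74, without 7d replicate 7 for Cd22 and Cd74, without 7d replicate 12 for Cd22, Cd74 and Tap1 and with replicate 4 in the fit for Cd22, Tpsab1, Cd74 and Tap1. RT1-Bb, a class II gene, had 1444, 3309, 1473 and 1349 at 3d and 1491, 2413, 12.4 and 18.9 at 7d, so that 7d replicates 11 and 12 lay far below the other 6 samples.

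Erythroid genes divided the samples in another way. Of 15 tested, 9 were called higher at 7d without replicate 4 and 2 with all 8 samples, against 3.57% and 2.26% of all genes. The median without replicate 4 was 2.97. Hbb, beta globin, had 238, 992, 600.4 and 35554 at 3d and 38249, 1018, 16221 and 20588 at 7d. 3d replicate 4 lay with the high samples and 7d replicate 7 with the low ones, so that the call without replicate 4 (4.35 ± 1.35, adjusted p = 0.0205) was lost with it (2.83 ± 1.44, adjusted p = 0.168). Hba-a1, alpha globin, had 14826, 123599, 28579.9 and 275741 at 3d and 691495, 50482, 389556 and 761889 at 7d (3.09 ± 1.04, adjusted p = 0.0321), and Alas2, the enzyme of heme synthesis in red cells, had 37.8, 325, 136 and 1603 at 3d and 3254, 114, 2278 and 3464 at 7d (3.45 ± 1.20, adjusted p = 0.0382). With all 8 samples neither was called (adjusted p = 0.0994 and 0.136). The globins have near-identical copies, and reads that matched several places were discarded by the authors, so that single globin values are uncertain. The count of 9 fell to 2 without 3d replicate 1, to 3 without 3d replicate 3, 7d replicate 6 or 7d replicate 12, and to 4 without 7d replicate 11. Calls were lost without 3d replicate 1, 3d replicate 3, 7d replicate 6 or 7d replicate 12 for Hbb, Hba-a1 and Alas2, without 7d replicate 11 for Hba-a1 and Alas2 and with replicate 4 in the fit for Hbb, Hba-a1 and Alas2.

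Some collagens were higher at 3d, and the most abundant were not called. Of 38 collagen genes, 9 were called higher at 3d and 0 higher at 7d, against 16.5% and 3.57% of all genes, with a median of -0.64, against 8 and 0 with all 8 samples, and 6 without 3d replicate 2 as well. Col14a1, a fibril-associated collagen, had 1746, 4909, 2759.6 and 1692 at 3d and 813, 339, 301 and 265 at 7d, a 7.31-fold higher mean at 3d (-2.89 ± 0.61, adjusted p = 0.00149). Col4a2, of basement membranes, had 162, 775, 293 and 165 at 3d and 32.6, 34.2, 12.4 and 18.9 at 7d (-3.81 ± 0.82, adjusted p = 0.00171), and Col4a6 had 43.3, 8.33, 30.3 and 13.4 at 3d and 3.63, 0, 0 and 0 at 7d (-4.00 ± 1.01, adjusted p = 0.00564). In these genes 3d replicate 4 was at positions of 0.26, 0.26 and 0.18 between the days. Col1a1 had 63582, 255933, 45587 and 364423 at 3d and 652633, 118640.4, 383228 and 109941 at 7d (1.40 ± 0.69, adjusted p = 0.141) and Col3a1 had 35563, 101013, 20614 and 215515 at 3d and 244453, 58452, 139565 and 70120.3 at 7d (1.37 ± 0.58, adjusted p = 0.0841). For both fibrillar collagens 3d replicate 4 and 7d replicates 6 and 11 were the highest samples.

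Of 38 other matrix genes, 4 were called higher at 3d, a lower share than the 16.5% of all genes, and 2 higher at 7d (3 and 0 with all 8 samples). Thbs1, thrombospondin 1, had 200.1, 1017, 535 and 66.8 at 3d and 21.8, 2.85, 9.31 and 0 at 7d (-6.45 ± 1.43, adjusted p = 0.00215). Adamts5, a protease of proteoglycans, had 124, 242, 202 and 31.2 at 3d and 7.26, 2.85, 3.1 and 0 at 7d (-5.76 ± 0.96, adjusted p = 2.08e-04). Fbn2, fibrillin 2 of developing elastic fibres, had 43.3, 1058, 192 and 66.8 at 3d and 14.5, 0, 3.1 and 28.4 at 7d (-4.99 ± 1.36, adjusted p = 0.00959), and Vcan, versican, had 2401, 7409, 2603 and 2155 at 3d and 2115, 1232, 1173 and 1097 at 7d (-1.41 ± 0.51, adjusted p = 0.0458). 3d replicate 2 was the highest sample in all 4, and without it 2 of them were called. Bgn, biglycan, had 3828, 8484, 3673 and 13447 at 3d and 13803, 8580.1, 16693 and 10103 at 7d (1.27 ± 0.39, adjusted p = 0.0191) and Adamts2, which processes procollagen, had 989.5, 2259, 903 and 2489 at 3d and 4161, 1942, 3432 and 2046 at 7d (1.12 ± 0.41, adjusted p = 0.0482), both higher at 7d without replicate 4 and not called with it. Sparc, osteonectin, had 47426, 145377, 42549 and 144456 at 3d and 136004, 37866, 88193 and 46462 at 7d (0.03 ± 0.49, adjusted p = 0.974). Of 35 cell cycle genes, 4 were called higher at 3d, a lower share than the 16.5% of all genes, and 0 higher at 7d. Their median was -0.06, near that of all genes. Called higher at 3d were 1 without 3d replicate 2 as well and 2 without 7d replicate 12. Mki67, the proliferation marker, had 200.1, 1575, 192 and 338 at 3d and 47.2, 17.1, 89.996 and 18.9 at 7d (-3.47 ± 0.94, adjusted p = 0.00917), Ccnd2 had 1503, 717, 1357 and 303 at 3d and 152, 151, 40.3 and 154 at 7d (-3.36 ± 0.69, adjusted p = 0.00125), and Ccnd1 and Ccne2 had log2 differences of -1.35 and -2.04. Across the matrix and cell cycle genes calls were lost without 3d replicate 1 for Bgn and Adamts2, without 3d replicate 2 for Fbn2, Vcan, Mki67, Ccnd1 and Ccne2, without 3d replicate 3 or 7d replicate 11 for Vcan, Bgn, Adamts2 and Ccne2, without 7d replicate 6 for Adamts2 and Ccnd1, without 7d replicate 7 for Vcan and Ccne2, without 7d replicate 12 for Vcan, Ccnd1 and Ccne2 and with replicate 4 in the fit for Vcan, Bgn, Adamts2, Ccnd1 and Ccne2.

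Genes of the hypoxia response went in both directions. Of 28, 5 were called higher at 7d and 6 higher at 3d in both comparisons. Without replicate 4 the shares of all genes were 3.57% and 16.5%, and the median of the list was 0.23. Among the 6 were the regulators Hif1a, Arnt and Egln1. Hif1a, the oxygen-regulated subunit, had 968, 2900.4, 1423 and 842 at 3d and 704, 736, 602 and 639.9 at 7d (-1.25 ± 0.35, adjusted p = 0.0122), its partner Arnt had 103, 133, 116 and 62.3 at 3d and 0, 17.1, 6.21 and 22.1 at 7d (-3.99 ± 1.08, adjusted p = 0.00912), and Egln1, the hydroxylase that marks Hif1a for decay, had 64.9, 125, 146 and 0 at 3d and 0, 2.85, 3.1 and 3.15 at 7d (-5.23 ± 1.36, adjusted p = 0.00705). The glycolytic enzymes Hk1 and Pkm and the regulator Pfkfb4 were higher at 3d as well, Pkm with a log2 difference of -1.72. For Hk1 the ratio of reads was 156 (95% counting interval 27 to 6259), and for Pfkfb4 it was 52.8 (95% counting interval 8.5 to 2185). Several known targets were higher at 7d. Adm, the vasodilator adrenomedullin, had 178, 267, 217 and 1006 at 3d and 1712, 1018, 1207 and 779 at 7d (2.37 ± 0.60, adjusted p = 0.00541). Ddit4, an inhibitor of mTORC1, had 1341, 917, 1271 and 668 at 3d and 5318, 4347, 4736 and 5372 at 7d (2.08 ± 0.53, adjusted p = 0.00593). Slc2a1, the glucose transporter GLUT1, had 1011, 933, 827 and 1460.5 at 3d and 2191, 2459, 2123 and 3124 at 7d (1.41 ± 0.38, adjusted p = 0.00837). For Ddit4 and Slc2a1 the days did not overlap, replicate 4 included. Pfkfb3 and Ndrg1 had log2 differences of 1.92 and 1.24. The abundant glycolytic genes Aldoa (0.36 ± 0.28, adjusted p = 0.365) and Pgk1 (0.11 ± 0.34, adjusted p = 0.833) did not pass. Calls in this list were lost without 3d replicate 1 for Pfkfb3 and Ndrg1, without 3d replicate 2 for Hif1a and Pkm, without 3d replicate 3 for Pkm and Ndrg1, without 7d replicate 6 or 7d replicate 11 for Ndrg1 and with replicate 4 in the fit for Egln1.

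Antioxidant and metabolic genes were seldom called higher at 3d. Of 37 antioxidant genes, 3 were called higher at 7d and 1 higher at 3d, against 3.57% and 16.5% of all genes, with 1 higher at 7d without 3d replicate 2 as well and 5 without 7d replicate 6. Sod3, extracellular superoxide dismutase, had 2260.2, 3067, 1937 and 6002 at 3d and 7179, 6526, 9887 and 9712 at 7d (1.78 ± 0.37, adjusted p = 0.00126). Nqo1, a quinone reductase under Nrf2, had 1341, 233, 1191 and 886 at 3d and 4281, 3143, 3156 and 5936 at 7d (2.47 ± 0.61, adjusted p = 0.00487), and Cat, catalase, had 2644, 1675, 2235 and 2859 at 3d and 4063, 3859, 5170.1 and 4445 at 7d (1.02 ± 0.29, adjusted p = 0.0124). The days did not overlap in these genes. Gsta3, higher at 3d, rested on 14 reads at 3d and 0 at 7d. Of 82 nuclear genes of oxidative phosphorylation, 4 were called higher at 7d and 0 higher at 3d (2 and 0 with all 8 samples), while 77 had a positive log2 difference and in 48 the days did not overlap with 7d higher, against 13.1% of all genes. The share called higher at 7d was near the 3.57% of all genes, and the median of the list was 0.48. Atp5pf (1.03 ± 0.23, adjusted p = 0.00227), Cox6c (1.01 ± 0.28, adjusted p = 0.0106), Ndufa12 (1.55 ± 0.46, adjusted p = 0.0153) and Sdhd (1.08 ± 0.34, adjusted p = 0.0223) were the members called, and Atp5f1b, the catalytic beta subunit of ATP synthase, had 11490.1, 8909, 11033 and 11906 at 3d and 14880.2, 19716, 17400.3 and 17978 at 7d (0.74 ± 0.24, adjusted p = 0.0234). The count was 9 without 3d replicate 1, 1 without 3d replicate 2, 2 without 3d replicate 3 and 1 without 7d replicate 7, and it was 13 when every sample was scaled to the same total and 1 when scaled to the same total outside mitochondrially encoded genes, where Atp5pf, Cox6c and Sdhd were not called. Of 91 ribosomal protein genes, Rps20, Rpl39l and Rps9 were called higher at 7d, near the 3.57% of all genes. Rpl7l1 was called higher at 3d, against 16.5% of all genes, and the median was 0.20. Of 17 adipocyte genes, Lipe, hormone-sensitive lipase, was called higher at 7d (1.57 ± 0.49, adjusted p = 0.0221). Single calls in these lists were lost without 3d replicate 1 for Rpl39l and Lipe, without 3d replicate 2 for Nqo1, Cat, Gsta3, Atp5pf, Cox6c, Sdhd, Rps20, Rpl39l and Rps9, without 3d replicate 3 for Gsta3, Atp5pf, Ndufa12, Sdhd, Rps9 and Lipe, without 7d replicate 6 for Gsta3, Sdhd and Lipe, without 7d replicate 7 for Gsta3, Atp5pf, Cox6c, Sdhd and Rpl39l, without 7d replicate 11 for Cat, Gsta3, Sdhd, Rps20 and Rps9, without 7d replicate 12 for Gsta3 and Ndufa12 and with replicate 4 in the fit for Cat, Gsta3, Atp5pf, Cox6c, Rps20, Rpl39l, Rps9 and Lipe.

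Genes of Hedgehog, Notch and Wnt signalling were called in both directions. Of 53, 9 were called higher at 3d, near the 16.5% of all genes. Higher at 7d were 6, against 3.57% of all genes. With all 8 samples 9 and 3 were called. Lrp6, a Wnt co-receptor, had 611, 1225, 964 and 321 at 3d and 97.9, 71.3, 106 and 66.2 at 7d, a 10.9-fold higher mean at 3d (-3.41 ± 0.39, adjusted p = 2.10e-05). Rbpj, the DNA-binding partner of Notch, had 1011, 1309, 1135 and 672 at 3d and 326, 143, 99.3 and 211 at 7d (-2.69 ± 0.42, adjusted p = 1.27e-04). Ctnnb1, beta-catenin, had 59.5, 183, 156 and 17.8 at 3d and 0, 2.85, 15.5 and 15.8 at 7d (-4.40 ± 1.07, adjusted p = 0.0042), Hhip, which binds Hedgehog, had 114, 66.7, 80.7 and 17.8 at 3d and 0, 0, 3.1 and 6.3 at 7d, and Maml2, a Notch co-activator, had 91.9, 75, 60.5 and 8.91 at 3d and 0, 0, 0 and 6.3 at 7d. Ratios of reads were 37.7 (95% counting interval 12.1 to 189.8) for Hhip and 47.8 (95% counting interval 12.4 to 409) for Maml2. Sfrp2, a secreted Wnt antagonist, was higher at 7d without replicate 4, with 3049.6, 4234, 1781 and 5824 at 3d and 8115, 6749, 4987 and 7515 at 7d (1.24 ± 0.45, adjusted p = 0.0476). Its call was lost without 3d replicate 1, 3d replicate 3, 7d replicate 6, 7d replicate 7 or 7d replicate 12 and with replicate 4 in the fit.

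Epithelial genes were lowest in 3d replicate 2. Of 18 urothelial genes, 2 were called higher at 7d and 1 higher at 3d in both comparisons. Without replicate 4 the shares of all genes were 3.57% and 16.5%. The count higher at 7d was 0 without 3d replicate 2 as well and 7 without 3d replicate 1. Elf3, an epithelial transcription factor, had 4985, 200.03, 4833 and 2208 at 3d and 5151, 12568, 11346 and 22725 at 7d (2.75 ± 0.99, adjusted p = 0.0443), and Cldn4, a tight junction protein, had 8116, 375, 7522 and 3860.4 at 3d and 10846, 19841, 14812 and 18961 at 7d (2.46 ± 0.90, adjusted p = 0.0464). 3d replicate 2 was the lowest sample in both. Krt7 had 3996, 292, 2608 and 1109 at 3d and 7215, 8600.03, 2380.2 and 7134 at 7d (1.97 ± 0.85, adjusted p = 0.0914). Psca, higher at 3d, had 32.4, 8.33, 50.4 and 40.1 at 3d and 0, 14.3, 0 and 0 at 7d (-3.67 ± 1.14, adjusted p = 0.0203). Of 19 squamous genes, Krt16 was called higher at 7d (3.67 ± 0.96, adjusted p = 0.00749) and Krtdap higher at 3d (-4.28 ± 1.49, adjusted p = 0.0375). Epithelial calls were lost without 3d replicate 1 for Psca and Krtdap, without 3d replicate 2 or 7d replicate 7 for Elf3, Cldn4 and Krtdap, without 3d replicate 3 for Psca, without 7d replicate 6 for Cldn4, Psca and Krtdap, without 7d replicate 11 for Elf3, Cldn4 and Psca, without 7d replicate 12 for Elf3, Cldn4, Psca and Krtdap and with replicate 4 in the fit for Krtdap.

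The genes with the largest differences on the side of 7d had low counts at 3d. Fdcsp, a small secreted peptide of follicular dendritic cells and epithelia, had 5.41, 8.33, 0 and 4.45 at 3d and 522, 462, 109 and 132 at 7d (5.96 ± 1.83, adjusted p = 0.0194). Pip, a secretory protein of glands, had 10.8, 0, 10.1 and 53.4 at 3d and 686, 285, 189 and 148 at 7d (5.75 ± 1.84, adjusted p = 0.0249). Prss30, a serine protease, had 0, 33.3, 131 and 80.1 at 3d and 203, 864, 664 and 1333 at 7d (5.25 ± 1.30, adjusted p = 0.00492). The 7d samples were all above the 3d samples, over a wide range. Tff3, a mucosal trefoil peptide, and Cldn10, a claudin, had log2 differences of 4.42 and 4.16, and Neu2, Tmem86b and Gnb3 had 5.01, 4.33 and 4.25. With all 8 samples the somatostatin receptor Sstr2 (4.35 ± 1.13, adjusted p = 0.00859) and Agrp (3.55 ± 0.93, adjusted p = 0.00923), known from the hypothalamus, were among the 10 largest. Ciart, a repressor of the circadian clock, had 5.41, 0, 5.04 and 8.91 at 3d and 181, 94.1, 112 and 170.2 at 7d (5.32 ± 0.99, adjusted p = 5.38e-04), and all 3d samples, replicate 4 included, held at most 8.91 normalized counts. Calls at this end were lost without 3d replicate 1 for Prss30, Gnb3, Cldn10 and Agrp, without 3d replicate 2 for Pip, Cldn10 and Sstr2, without 3d replicate 3 for Fdcsp and Gnb3, without 7d replicate 6 for Pip, Gnb3 and Cldn10, without 7d replicate 7 or 7d replicate 11 for Cldn10 and without 7d replicate 12 for Gnb3 and Sstr2.

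Whether the change between days depended on the treatment was tested as a difference of changes. Against saline, 0 genes were called in limma with all 24 samples and 1347 had an unadjusted p below 0.05, while DESeq2 called 5 and edgeR 0. Leaving out both 3d replicate 4 and saline 3d replicate 6, whose most read gene was the mitochondrial AY172581.24 with 7.31% of its reads, put 526 genes past the same thresholds with a lower change after VEGF MABs, 3.24% of those tested, and 71 with a higher one, 0.437%. Both samples were left out with their values known, so that these counts are a description and no test. Leaving out replicate 4 alone called 1 gene, and leaving out saline replicate 6 alone called 0.

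The differences of changes in these 22 samples are given as values without a p. The means printed beside them for saline and for MABs use all 4 samples of each group. They thus include saline 3d replicate 6, which the differences leave out. Llgl1 and Setd1b, both without a read at 7d after VEGF MABs, had differences of -6.91 ± 1.21 and -7.08 ± 1.31. After saline Setd1b had a mean of 15.6 ± 26.6 at 3d and 1.47 ± 1.73 at 7d (SD, n = 4), and after MABs 352 ± 246 at 3d and 1.87 ± 2.18 at 7d. Tmtc1 (-7.66 ± 1.43), Nup160 (-7.00 ± 1.44) and Plau, urokinase (-6.88 ± 1.42), were the others of the 5 largest. In all 5 genes the 3d mean was higher after both kinds of MABs than after saline. On the other side Nr4a1 had 3.59 ± 0.97. Its mean was 243 ± 109.9 at 3d and 442 ± 201 at 7d after saline, 126 ± 106 at 3d and 729 ± 673 at 7d after MABs and 83.6 ± 17.7 at 3d without replicate 4 and 1569 ± 804 at 7d after VEGF MABs. Gsn, gelsolin, which severs actin filaments, had 8511, 3809, 3834 and 14694 at 3d and 68470.05, 22494, 63807 and 47814 at 7d after VEGF MABs and a difference of 3.15 ± 0.64, with a mean of 32764 ± 15994 at 3d and 42707 ± 14166 at 7d after saline. Stmn4 (3.12 ± 0.57), Nkain4 (3.39 ± 0.89) and Igfbp3 (3.67 ± 0.87) completed the list. With all 24 samples the adjusted p of these 10 genes ranged from 0.479 to 0.626.

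Against MABs without VEGF, 1 gene was called with all 24 samples and 0 without replicate 4, and 815 and 722 genes had an unadjusted p below 0.05, while edgeR and DESeq2 called 0. The gene was Ccnb1ip1, a regulator of meiotic crossing-over, with 5.41, 8.33, 5.04 and 13.4 at 3d and 0, 0, 0 and 0 at 7d, that is 3 reads in 3d replicate 4 and 1 in each other 3d sample. Its mean after MABs was 0 ± 0 at 3d and 8.65 ± 4.87 at 7d. Its change differed by -6.23 on the log2 scale (adjusted p = 0.0203 in limma). For the other genes a difference between the changes after VEGF MABs and after MABs was not detectable with these samples.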

How the data were processed

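RNA of urethral tissue was measured in 24 rats, 4 in each of 6 groups (saline, MABs and VEGF MABs at 3d and 7d), with groups and replicate numbers taken from the sample titles. The authors made 3′ libraries with a QuantSeq kit, aligned single reads to Rnor6.0 with HISAT2, discarded reads with several matches, counted with HTSeq and divided by DESeq2 size factors, and they deposited these normalized counts as 1 table. The deposited values are thus a signal relative to size factors. The strand setting of the counting is not given in the sources used here. Whole reads were recovered from the smallest step of each sample, and all of the values came out whole within 0.01 reads, over 2170695 to 10166052 reads per library. Counting intervals (95%) and floors (3 reads per library) cover counting error only.

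Genes with a mean of at least 2 over the 8 VEGF MAB samples were tested with limma 3.58.1 in R 4.3.3 on log2(normalized count + 1), with all 6 groups in the fit, a trend in eBayes and Benjamini-Hochberg adjustment over all genes tested. On the recovered reads edgeR 4.0.16 (quasi-likelihood) and DESeq2 1.42.0 were run as alternatives, besides other pseudocounts, filters, scalings, thinned reads, sample weights, left-out libraries and a replicate block. Scaling outside mitochondrial genes and the list of clock genes were added after the data had been seen. The procedure was tested on simulated data.

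The genes, gene lists and tests were chosen with earlier results of these data known. Named genes are Vegfa and Cd34, the 10 largest non-overlapping changes in each direction with a mean of at least 50 in the higher group, and, of each of 34 lists, up to 5 members by p and 2 by level, with the 5 largest in each direction for the differences between treatments. Fos, Ier2, Arc, Dusp1, Zfp36, Nr4a3, Ptbp1, Ell3, Pax3, Heyl, Kdr, Igf2, Gdnf, Ret, Ptprc, Adamts2, Hif1a, Arnt, Pkm, Slc2a1, Pfkfb3, Ndrg1, Alas2, Ndufa12, Sdhd, Rpl39l, Rps9, Ccnb1ip1 and the clock genes other than Ciart were chosen after their values were seen. A few of the named genes and 1 list are not reported here. Promoters came from RefSeq build GRCr8, matched by symbol, and differ in build from the files.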

Additional observations from a re-analysis of the deposited data

Results flagged for a closer look

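Within each day, the gap of an extreme sample to the nearest other was taken as a share of the range of the 4 samples. Genes were on the log2 scale, and shares of reads and numbers of detected genes were not. A sample was picked out when this share of the range exceeded Dixon's critical value at the 95% level. This was so for 41 of 410 groups of 4 values, or 10%, where chance gives about 1 in 20. The rates cannot be set against each other. Many genes were chosen by tests that left out 3d replicate 4, and the genes are not independent. Groups of 4 equal values, which cannot be picked out, are among the 410. A share of 1 means that the other 3 samples had equal values, mostly 0.

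At 3d, replicate 4 stood apart from the other 3d samples for 11 genes. It was the lowest sample for Kmt2c (0.961), Akap7 (0.959), Pbrm1 (0.952), Cpeb4 (0.88), Suz12 (0.869), Pfkfb4 (0.86), Supt16h (0.852), Hnrnph2 (0.84) and Egln1 (0.839). It was the highest for Neu2 (1) and Ell3 (1). Replicate 2 was the lowest 3d sample for Ier2 (0.914) and the highest for Myog (0.856), RT1-Bb (0.902) and Vcan (0.847).

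At 7d, replicate 11 stood apart most often. It was the lowest for Synpo2 (0.866), Ccnd2 (0.984), Krt7 (0.854), Krt16 (0.853), Fam171a1 (0.88) and the number of genes detected at equal depth (0.929). It was the highest for Prx (0.941) and the only 7d sample with a read for Prox1 (1), Pax7 (1), Robo1 (1), Hk1 (1) and Krtdap (1). Replicate 12 was the lowest 7d sample for Cdc73 (0.906), Sema3a (0.875) and Sdhd (0.875), the highest for Ptprc (0.848) and the only one with a read for Pfkfb4 (1), Maml2 (1) and Bhlhe41 (1). Replicate 6 was the lowest for Ier5 (0.908) and Egln1 (0.947), the highest for Pfkfb3 (0.833) and the only one with a read for Cd4 (1) and Col4a6 (1). Replicate 7 was the lowest for Alas2 (0.877) and the only one with a read for Psca (1).

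By the interaction term of limma, the change of Ccnb1ip1 from 3d to 7d differed from that after MABs by -6.23 with all 24 samples.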

How the results depend on the processing

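With all 8 samples 2515 genes were called, and 1750 (without 3d replicate 2) to 3267 with 1 library left out. Without 3d replicate 4 there were 3267, and 2677 to 3357 with a further library left out. With replicates 6 and 7 as the only 7d samples the counts were 1163 and 2102, and 31 chromatin genes were called higher at 3d. With replicates 11 and 12 as the only 7d samples they were 1738 and 2607. A mean of at least 10 left 28 small RNA genes higher at 3d. The difference from saline gave 0 calls in limma, 0 to 1 with 1 library left out, 365 with sample quality weights, 597 without saline 3d replicate 6 and VEGF MAB 3d replicate 4, and 5 in DESeq2. The difference from MABs gave 1 call, 0 to 2 with 1 library left out, and 0 with a pseudocount of 5, a mean of at least 10, quantile normalization or thinned reads, and in edgeR and DESeq2. With the replicate block it gave 0 against MABs and 0 against saline. Same-numbered samples of VEGF MABs and MABs at 3d correlated in their deviations at 0.222, 0.149, 0.0726 and 0.249, and as 1 of the 4 was not over 0.1 the numbers were not taken as pairs, although 3 of the 4 samples correlated best with their own number. No paired analysis was possible for 7d against 3d because these groups share no replicate number. Of the values of named genes under the alternatives, 7469 kept their direction and call, 860 lost the call, 179 gained one and 0 changed direction while called. The cause of these changes was not tested. Depth limits the genes near 0 at 7d, of which 778 had 3 reads or fewer in every sample.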

Other observations

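Some genes of the circadian clock differed between the days. The list was added after the values of Ciart had been seen, and the hours at which the rats were killed are not given in the sources used here, so that day and hour cannot be told apart. Of 20 listed genes 18 were tested, and 5 were called higher at 7d and 3 higher at 3d without replicate 4, the latter near the 16.5% of all genes and the former against 3.57%, against 6 and 2 with all 8 samples. Nr1d1, a repressor of the clock, had 319, 125, 217 and 646 at 3d and 2496, 1640.1, 1611 and 2011 at 7d (3.21 ± 0.58, adjusted p = 4.39e-04). Its relative Nr1d2 had 1644, 800.1, 1155 and 1830.02 at 3d and 4273, 3774, 4044 and 4706 at 7d (1.86 ± 0.29, adjusted p = 1.06e-04). The output factors Dbp and Tef had 1811, 925, 1524 and 2137 at 3d and 2819, 3959, 3398 and 5495 at 7d (1.47 ± 0.43, adjusted p = 0.0145) and 335, 508, 610.4 and 677 at 3d and 1375, 1198, 1192 and 1501 at 7d (1.48 ± 0.34, adjusted p = 0.00288). For all 4 the days did not overlap, replicate 4 included. Per2 had 935, 1017, 732 and 681 at 3d and 2046, 1674, 1338 and 1913 at 7d, and it was called with all 8 samples (1.05 ± 0.36, adjusted p = 0.0418) and not without replicate 4 (adjusted p = 0.0783). On the other side Clock, a core activator, had 1363, 1267, 1534 and 561 at 3d and 794, 599, 562 and 397 at 7d (-1.28 ± 0.27, adjusted p = 0.00164), and Bhlhe41, a repressor, had 114, 83.3, 40.4 and 26.7 at 3d and 0, 0, 0 and 3.15 at 7d (-5.69 ± 1.34, adjusted p = 0.00335). Rora, the other of the 3, had 406, 275, 515 and 236 at 3d and 178, 111, 49.7 and 97.7 at 7d (-1.95 ± 0.51, adjusted p = 0.00736). It was called with all 8 samples too. Arntl, the partner of Clock, had 443, 408, 353 and 365 at 3d and 345, 157, 351 and 91.4 at 7d (-0.97 ± 0.58, adjusted p = 0.233). Per3 (-0.49 ± 0.40, adjusted p = 0.394) and Cry1 (-0.51 ± 0.53, adjusted p = 0.513) did not pass. Among the genes named here, with Rora not looked at in this way, calls without replicate 4 were lost without 3d replicate 2 for Dbp and with replicate 4 in the fit for Clock.

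Clock and Arntl bind the E-box CACGTG, which reads the same on both strands. In the 250 bases before the gene start it was found for 5 of 16 clock genes with a window, 3 of the 5 called higher at 7d, and 8.16% of all tested genes with a window. Ciart (chr2:186112247-186112496, minus strand) and Tef (chr7:115206577-115206826, plus strand) are shown as examples, with the E-boxes in capitals (RefSeq, build GRCr8). Nr1d1, called higher at 7d, Bhlhe41, called higher at 3d, and Bhlhe40, not called, hold it too. A match was not tested for binding.
Ciart: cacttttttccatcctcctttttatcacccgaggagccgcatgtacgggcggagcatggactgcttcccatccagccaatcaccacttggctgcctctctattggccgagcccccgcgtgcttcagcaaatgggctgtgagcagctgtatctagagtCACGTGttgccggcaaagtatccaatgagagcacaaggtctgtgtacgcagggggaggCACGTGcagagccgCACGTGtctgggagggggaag
Tef: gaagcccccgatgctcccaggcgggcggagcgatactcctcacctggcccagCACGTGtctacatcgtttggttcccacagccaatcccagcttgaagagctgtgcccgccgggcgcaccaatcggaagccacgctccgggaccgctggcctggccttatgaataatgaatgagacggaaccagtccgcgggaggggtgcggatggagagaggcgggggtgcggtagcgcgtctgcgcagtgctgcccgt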
